A study of Mus musculus with 12 samples.

Results

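The core clonotypes are the TCRα clonotypes found in each of 12 TCRα libraries from thymic regulatory T lymphocytes (Treg), and they were chosen by their counts, with at least 1 count in every library. A clonotype was defined by its V segment, the amino acid sequence of its CDR3 and its J segment. Of 22578 clonotypes, 178 met the rule, which is 0.788% of the clonotypes. Each library came from 100000 thymocytes of a single mouse aged 3 weeks, sorted for CD4, Thy1.1 and GFP and against CD8, and there were 4 wt, 4 Il2° and 4 Il15° mice. All mice carried the Rag2-Gfp reporter, whose GFP marks recently developed cells, the Foxp3-Thy1a reporter, whose Thy1.1 marks expression of Foxp3, the Kaa Tcrb transgene and 1 null allele of Tcra on the B6 background. The Il2° mice lacked Il2 and the Il15° mice lacked Il15 in all cells. A single transgenic TCRβ chain is thus shared by the cells, and a clonotype stands for cells that differ in the TCRα chain. The counts are unique molecular identifiers (UMIs), each standing for 1 tagged Tcra mRNA molecule, and the libraries held between 7625 and 25980 of them. The tables hold TCRα sequences alone, so that the Treg identity of the cells rests on the sort. Fewer cells of a clonotype and less Tcra mRNA per cell cannot be told apart in these counts.

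TCRα chains are made by joining a TRAV to a TRAJ segment, with bases trimmed from the ends and other bases added between them. The junction is the CDR3, the loop of the chain that lies over the peptide in the groove of the MHC molecule, while the rest of the V segment mostly meets the MHC molecule itself. Clonotypes that many individuals share are called public, and several nucleotide sequences can encode the same CDR3. In the thymus, recognition of self-peptides through the TCR directs CD4+ precursors to the Treg lineage, and IL-2 and IL-15 signal to these precursors through receptors that share the β and γ chains.

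The nucleotide sequences that carry the results are given first. They are read 5' to 3' from the conserved cysteine to the conserved phenylalanine, and capitals mark bases that the authors' alignment left between the V part and the J part. Where a sequence has no capitals, the V and J parts met without such bases. The most abundant core clonotype, TRAV10 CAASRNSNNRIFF TRAJ31, is shown by its 3 leading sequences, which held 46.6%, 41.5% and 3.84% of its UMIs.
TRAV10 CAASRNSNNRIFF TRAJ31, sequence 1: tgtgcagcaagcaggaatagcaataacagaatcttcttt
TRAV10 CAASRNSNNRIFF TRAJ31, sequence 2: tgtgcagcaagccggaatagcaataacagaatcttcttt
TRAV10 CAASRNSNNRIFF TRAJ31, sequence 3: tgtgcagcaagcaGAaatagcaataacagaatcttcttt

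The core clonotype with the most sequences, TRAV4D-4 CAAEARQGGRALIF TRAJ15, had 23 of them, and its first 4 held 17.4%, 16.5%, 12.6% and 9.78% of its UMIs.
TRAV4D-4 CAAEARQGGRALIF TRAJ15, sequence 1: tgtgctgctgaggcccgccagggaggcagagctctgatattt
TRAV4D-4 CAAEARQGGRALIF TRAJ15, sequence 2: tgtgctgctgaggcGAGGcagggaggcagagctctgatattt
TRAV4D-4 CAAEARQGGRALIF TRAJ15, sequence 3: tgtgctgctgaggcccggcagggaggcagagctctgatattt
TRAV4D-4 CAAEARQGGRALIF TRAJ15, sequence 4: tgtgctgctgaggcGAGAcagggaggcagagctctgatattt

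The leading sequences of 4 core clonotypes with low edgeR p-values between Il2° and wt share their first 12 bases, which code for cysteine, 2 alanines and glutamate.
TRAV4D-3 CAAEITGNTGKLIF TRAJ37: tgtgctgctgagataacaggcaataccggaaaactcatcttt
TRAV4D-3 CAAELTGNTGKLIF TRAJ37: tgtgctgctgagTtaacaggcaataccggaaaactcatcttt
TRAV4D-3 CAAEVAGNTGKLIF TRAJ37: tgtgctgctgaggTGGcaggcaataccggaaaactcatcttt
TRAV4D-4 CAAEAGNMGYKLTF TRAJ9: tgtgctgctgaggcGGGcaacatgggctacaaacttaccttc

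The leading sequences of the 2 core clonotypes with the lowest p-values between Il15° and Il2° are given next, followed by the second member in rank and by the 4 sequences of a TRAV11 TRAJ18 member, which held 32.8%, 29.5%, 26.2% and 11.5% of its UMIs. These last 2 members have CDR3 of 15 residues and are named by their segments.
TRAV6-5 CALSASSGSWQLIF TRAJ22: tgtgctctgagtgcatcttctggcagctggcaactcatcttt
TRAV16N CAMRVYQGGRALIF TRAJ15: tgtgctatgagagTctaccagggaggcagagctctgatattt
TRAV16 TRAJ12 with 15 residues: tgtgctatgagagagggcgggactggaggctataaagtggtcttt
TRAV11 TRAJ18 with 15 residues, sequence 1: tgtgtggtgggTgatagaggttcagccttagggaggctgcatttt
TRAV11 TRAJ18 with 15 residues, sequence 2: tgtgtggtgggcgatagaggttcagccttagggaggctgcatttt
TRAV11 TRAJ18 with 15 residues, sequence 3: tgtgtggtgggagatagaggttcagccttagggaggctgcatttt
TRAV11 TRAJ18 with 15 residues, sequence 4: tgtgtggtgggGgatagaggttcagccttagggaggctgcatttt

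The core held between 26.0% and 29.7% of the repertoire in every mouse. The 178 clonotypes held 55680 of 199248 UMIs. In the 4 wt mice their share was 27.2%, 27.3%, 28.3% and 28.2%. It was 29.4%, 26.0%, 26.6% and 29.3% for Il2° mice and 29.7%, 28.0%, 28.2% and 28.7% for Il15° mice. The values of the genotypes overlapped. Mean shares over 4 mice, with SD, were 27.8% ± 0.569 for wt, 27.8% ± 1.79 for Il2° and 28.7% ± 0.760 for Il15° Treg. Il2° Treg differed from wt by 0.0778 percentage points (exact Mann-Whitney test, 2-sided, p = 1.0), Il15° from wt by 0.897 (p = 0.343 in the same exact test) and Il15° from Il2° by 0.819 (p = 0.686 in the same exact test), and each p was 1.0 after Benjamini-Hochberg adjustment over the 3 comparisons. With 4 mice per genotype, the smallest p of this test is 0.0286. The 95% Wilson intervals of the shares, which cover counting error only, ran from 25.4% to 26.6% in the lowest library and from 29.0% to 30.4% in the highest. By the rule, every member was present in each genotype.

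**Figure D1:**
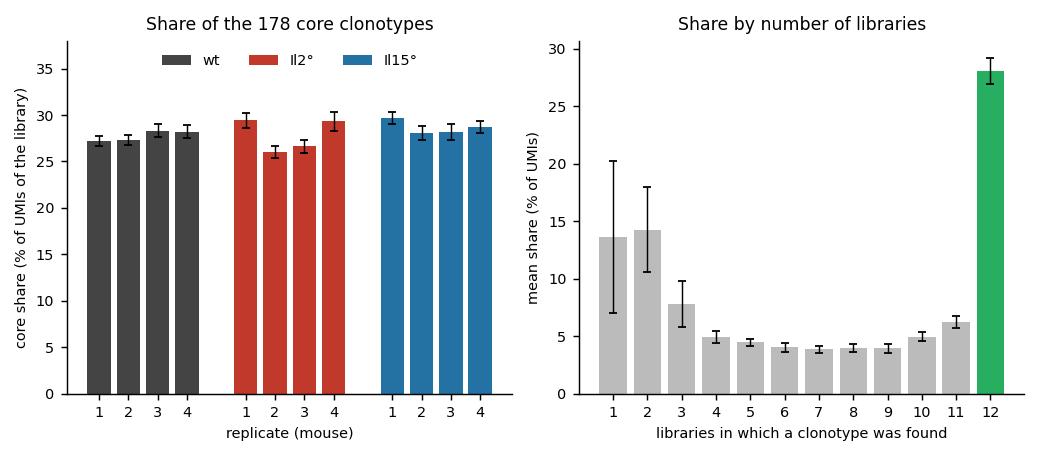
Left, share of the UMIs of each library held by the 178 core clonotypes, in percent, with 95% Wilson intervals, for 4 mice per genotype, and right, mean share of UMIs (bars, SD over 12 libraries) held by clonotypes found in 1 to 12 libraries. The core share lies between 26.0% and 29.7% in all mice, and clonotypes in 12 libraries (green) hold a mean of 28.1% against 6.22% for those in 11.

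The core held more of the UMIs than the clonotypes of any smaller number of libraries, by a rule that favours abundant clonotypes. Clonotypes of a single library numbered 12106 and held 13.6% ± 6.62 of the UMIs (SD over the 12 libraries), those of 10 libraries numbered 142 and held 4.95%, and those of 11 libraries numbered 116 and held 6.22% ± 0.561. The core held 28.1% ± 1.14. Just inside the rule, 64 members had a lowest count of 1 UMI and 22 a lowest count of 2, while 66 had at least 5 UMIs in every library. Just outside it, the 116 clonotypes of 11 libraries had a median of 80 UMIs in all, against 183 for the core. They were missing from Il15° replicate 3 in 23 cases, from Il15° replicate 2 in 21 and from wt replicate 3 in 17. In Il15° replicate 3, where the library held 10751 UMIs, 34 members stood at 1 UMI. In the 4 Il2° libraries 18, 12, 1 and 18 did, in the other Il15° libraries 3, 5 and 4, and in the wt libraries between 1 and 3.

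The members spanned a wide range of abundance. Their mean share over the 12 libraries had a median of 0.0904% and ran from 0.0218% to 2.12%. The 10 most abundant held 7.77% of a library in the mean and 27.7% of the core. TRAV10 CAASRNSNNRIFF TRAJ31 was the first in rank. It held 1.09%, 1.71%, 2.41% and 1.83% of the UMIs in wt, 3.76%, 1.64%, 1.63% and 2.15% in Il2°, and 2.33%, 1.67%, 2.72% and 2.45% in Il15° Treg. Its values overlapped between the genotypes and varied as much within Il2° mice as between the groups. The next, TRAV16 TRAJ12 with 15 residues, held between 0.376% and 1.65%, with both ends of the range in wt mice. TRAV4D-4 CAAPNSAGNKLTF TRAJ17 was steadier, with 0.862%, 0.803%, 0.764% and 0.808% in wt and between 0.549% and 1.26% in the mutants.

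Most members varied more than that. The highest share of a member over its lowest had a median of 8.79 and ran from 1.77 for TRAV7-3 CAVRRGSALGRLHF TRAJ18 to 91.5 for TRAV12-3 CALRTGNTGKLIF TRAJ37, the first of which was named after its value was seen. The latter held 0.504%, 0.393%, 0.851% and 0.560% in wt, 0.354%, 0.348%, 0.221% and 0.289% in Il2°, and 0.622%, 0.327%, 0.00930% and 0.506% in Il15° Treg. The value in Il15° replicate 3 was a single UMI, so that this member of the first 10 met the rule there by 1 count. Ranks were compared between mice. Across the 178 members, which are not independent replicates, Spearman's rho of the shares had a median of 0.685 over the 18 pairs of libraries of the same genotype and 0.620 over the 48 pairs of different genotypes, with ranges from 0.384 to 0.816 and from 0.445 to 0.805.

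**Figure D2:**
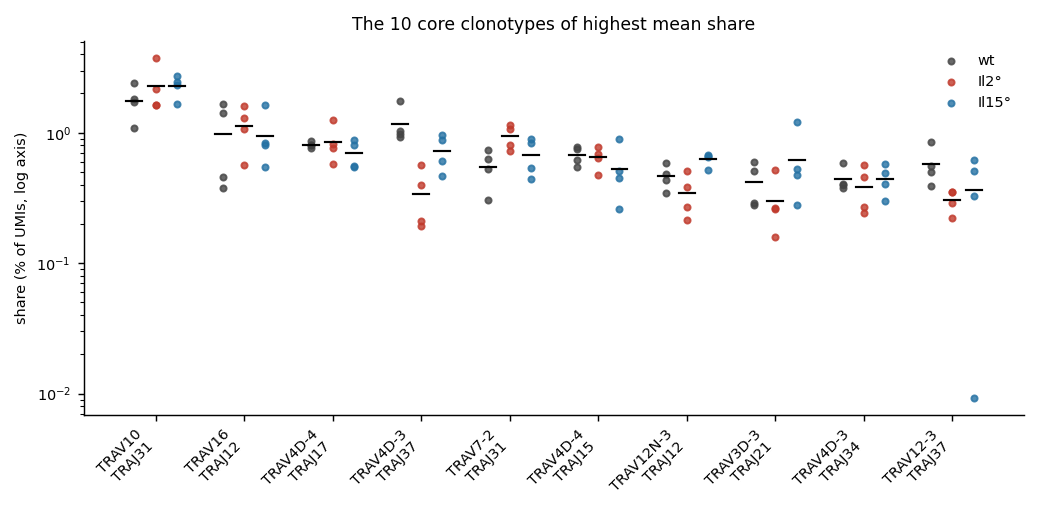
Share of the UMIs (percent, log axis) of the 10 core clonotypes of highest mean share, labelled by V and J segment, with 1 point per mouse and a black line at the mean of 4 mice. The TRAV4D-3 TRAJ37 member lies between 0.193% and 0.564% in Il2° and between 0.924% and 1.76% in wt Treg, and the lowest point of the plot is the single UMI of the TRAV12-3 TRAJ37 member in an Il15° mouse.

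A member of another kind stood near the lower end. TRAV11 TRAJ18 with 15 residues, looked up after the members were known, joins the segments of the invariant TCRα chain that iNKT cells carry. It was rank 172 with 61 UMIs in all and a mean share of 0.0306%. Its UMIs numbered 5, 4, 4 and 13 in wt, 4, 5, 2 and 1 in Il2°, and 11, 10, 1 and 1 in Il15° Treg. The groups overlapped. The part of iNKT cells in these counts was not tested.

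The 5 members with the lowest mean share were TRAV12N-3 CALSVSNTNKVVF TRAJ34 with 0.0218%, TRAV4-2 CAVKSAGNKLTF TRAJ17 with 0.0228%, TRAV4D-4 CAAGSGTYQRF TRAJ13 with 0.0229%, TRAV12N-3 CALSRY_QQQTYF TRAJ7 with 0.0261% and TRAV12N-3 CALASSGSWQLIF TRAJ22 with 0.0270%. Each had a lowest count of 1 UMI and between 40 and 54 UMIs in all, against 4014 for the first in rank. The deposited CDR3 of the TRAJ7 member spans 38 bases and carries a mark for a broken frame. Of all members, 4 carry a frame or stop mark, and together they held 0.234% of all UMIs. Whether the chains of these members are non-productive was not tested.

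The core drew on a limited set of segments. It used 40 of 105 TRAV and 33 of 44 TRAJ segments of the tables, from 16 TRAV families, with 52 members in TRAV4, 42 in TRAV7, 32 in TRAV12, 17 in TRAV6 and 11 in TRAV14. Within the libraries, 5 TRAV segments held a greater part of the UMIs of the core than of the UMIs of the other clonotypes. TRAV4D-4 (chromosome 14, 52990866 to 52991389, GRCm38) held 10.5% ± 1.04 against 5.36% ± 0.593, TRAV7-3 9.18% ± 1.51 against 4.44% ± 0.761, TRAV7-2 8.75% ± 2.12 against 4.99% ± 0.699 and TRAV12N-3 6.49% ± 1.19 against 4.98% ± 0.913 (SD, n = 12 libraries). TRAV10 (chromosome 14, 53505727 to 53506286) held 7.71% ± 2.32 against 1.59% ± 0.463, with 2 members, of which the first in rank made up most. Weighted by UMIs, each was higher in the core in 12 of 12 libraries (exact sign-flip permutation test over libraries, 2-sided, p = 0.000488, the smallest that 12 libraries can give, adjusted p = 0.000684). TRAV4N-3 held less of the core, 5.43% ± 0.754 against 8.71% ± 1.70 (adjusted p = 0.00171 in the same exact test).

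TRAV4D-3 (chromosome 14, 52899969 to 52900470), which held the most members, 29, took 16.6% ± 3.85 of the core UMIs and 16.4% ± 3.06 of the others (exact sign-flip permutation test, p = 0.717). Against other clonotypes with at least 5 UMIs alone, its share differed by -2.50 percentage points in the core (adjusted p = 0.00391 in the same exact test). Here and below, this minimum was set within each library and for the others only, and members stayed in at any count. With each clonotype counted once the direction was the opposite, with 16.3% of core clonotypes against 13.5% of the others. The core was higher in 12 of 12 libraries (adjusted p = 0.000488 in the same exact test). Counted once, the core value is the same in every library, so that such a p reflects the spread of the others alone. TRAV4D-4, TRAV7-3, TRAV7-2 and TRAV12N-3 were higher and TRAV4N-3 lower in this weighting too (adjusted p = 0.000488 each in the same exact test), and TRAV10, with 2 members, was not tested in it. The names TRAV4D-3, TRAV4N-3 and TRAV4-3 belong to near-identical copies of 1 segment, and the split of reads between copies is uncertain. Other names with D or N, such as TRAV4D-4 and TRAV12N-3, share this limit, and the segment shares above are by deposited name. With copies merged by name, the core had 220 members.

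Of 9 TRAJ segments tested, 5 held more of the core in 12 of 12 libraries. TRAJ31 (chromosome 14, 54187895 to 54187951) held 15.2% ± 3.06 of the core against 6.17% ± 0.629 of the others, TRAJ12 12.7% ± 2.02 against 6.59% ± 0.466, TRAJ37 8.52% ± 2.73 against 3.75% ± 0.471, TRAJ15 8.40% ± 1.57 against 4.00% ± 0.437 and TRAJ17 6.49% ± 1.04 against 3.59% ± 0.625 (adjusted p = 0.000732 each, exact sign-flip permutation test). TRAJ23 was lower in the core in 12 of 12 libraries, with 4.41% ± 0.849 against 6.94% ± 1.04 (adjusted p = 0.000732). TRAJ9, TRAJ22 and TRAJ27 did not pass, with differences of -0.0701, -0.496 and -0.490 percentage points and adjusted exact p of 0.845, 0.293 and 0.0571. The weighting changed several of these values. With each clonotype counted once, TRAJ12, TRAJ37, TRAJ15 and TRAJ31 were again higher in the core in 12 of 12 libraries (adjusted p = 0.000651 each in the same exact test), but the difference of TRAJ31 was 2.13 percentage points, 7.87% against 5.73%, where it was 9.03 by UMIs. The first member in rank carries TRAJ31 and alone held a mean of 2.12% of a library, where the whole core held 28.1%. TRAJ23 no longer passed, with a difference of -0.219 points and the core higher in 3 libraries (p = 0.271 in the same exact test). TRAJ22 was higher in the core by 1.96 points in 12 of 12 libraries (adjusted p = 0.000651) when counted once, and differed by -1.45 points against other clonotypes with at least 5 UMIs (adjusted p = 0.00691), so that its direction turned. TRAJ27 and TRAJ9 passed when counted once, with -0.620 and -0.406 points (adjusted exact p of 0.000651 and 0.0307), and TRAJ17 was not tested in this weighting. The members are the same clonotypes in every library, so that these tests speak of mice and not of further clonotypes. Counted once, the core value of a segment does not vary between libraries, and the p-values of that weighting reflect the spread of the others alone.

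**Figure D3:**
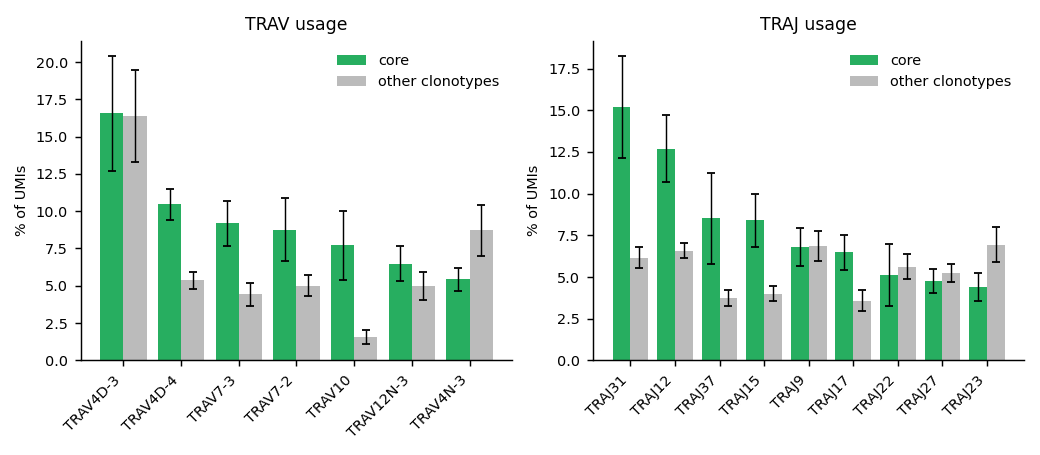
Share of UMIs (percent) held by TRAV segments (left) and TRAJ segments (right) with at least 5% in the core or in the other clonotypes, as means with SD over 12 libraries. TRAV10 stands at 7.71% in the core and 1.59% in the others, and TRAJ31 at 15.2% and 6.17%, while the bars of TRAV4D-3 are nearly level.

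The CDR3 of the core had fewer bases between the V and J parts than those of the others, while the difference in length depended on the weighting. Members had between 10 and 17 residues, with 63 of 13 and 59 of 14. The UMI-weighted mean was 13.13 residues ± 0.0466 in the core and 13.12 ± 0.0306 in the others, a difference of 0.00324 (exact sign-flip permutation test, p = 0.875). With each clonotype counted once the core was shorter by 0.142 residues (p = 0.000977 in the same exact test). In that weighting the core mean is the same in every library, so that the p reflects the spread of the others alone. By UMIs, against other clonotypes with at least 5 UMIs the core was longer by 0.115 (p = 0.00195 in the same exact test). The core had 1.31 ± 0.0587 bases between V and J, against 2.41 ± 0.0763 (lower in 12 of 12 libraries, exact sign-flip permutation p = 0.000488), and against other clonotypes with at least 5 UMIs the difference was -0.634 bases, again lower in 12 of 12. That minimum does not match the 2 sides in abundance. UMIs without any such base made up 43.6% ± 2.35 of the core and 28.3% ± 1.14 of the others (p = 0.000488 in the same exact test). With each clonotype counted once, the values were 32.0% ± 1.46 and 24.7% ± 1.38, a difference of 7.32 percentage points. Counted once against other clonotypes with at least 5 UMIs, the difference was 1.37 points, and the core was higher in 7 of 12 libraries. In the leading sequence of a member, 71 members had none, 66 had 1 or 2 and 41 had 3 or more.

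The order was not the same among clonotypes of like abundance. Among clonotypes with 80 to 159 UMIs in all, the 63 core members had a median of 1.68 inserted bases and the 102 clonotypes of 8 to 11 libraries a median of 1.08. With 160 UMIs or more, the medians were 1.33 for 99 members and 1.11 for 24 others. With 40 to 79 UMIs, 16 members stood at 0.861 and 270 others at 1.54. The core was thus lower in the lowest band and higher in the others, and none of these differences was tested.

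The middle of the core CDR3, without the first 3 and the last 4 residues, held fewer hydrophobic and acidic residues than that of the others. Hydrophobic residues (valine, leucine, isoleucine, methionine and the aromatic ones) made up 11.9% ± 0.621 against 16.2% ± 0.439 and acidic residues (aspartate and glutamate) 4.30% ± 0.462 against 6.10% ± 0.419. Basic residues (lysine, arginine and histidine) made up 7.73% ± 0.711 against 6.32% ± 0.441, and the remaining small or polar residues 76.1% ± 0.979 against 71.4% ± 0.537. Weighted by UMIs, all 4 differences had the same direction in 12 of 12 libraries (exact sign-flip permutation test, adjusted p = 0.000488 each). With each clonotype counted once, the directions were the same, but basic residues differed by only 0.284 percentage points, 7.03% against 6.74%, higher in the core in 10 of 12 libraries (adjusted p = 0.0103 in the same exact test), where the difference by UMIs was 1.41. Hydrophobic residues then differed by -2.73 points, where the difference by UMIs was -4.23. Counted once, the core values are the same in every library, and the test reflects the spread of the others alone.

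Core CDR3 were encoded by many nucleotide sequences. The members had 1284 of them, with a median of 7 and a range from 2 to 23 per member, and a median of 5 per member were found in 2 or more libraries. Of the members, 86 had at least 1 nucleotide sequence present in all 12 libraries, which gave 108 such sequences. A library held 4.04 ± 0.621 sequences per core clonotype and 1.39 ± 0.109 per other clonotype, weighted by UMIs, with the core higher in 12 of 12 libraries. The number of sequences rises with UMIs, which the rule favours. In a library, core clonotypes had a mean of 12.6 to 39.7 UMIs and the others 1.84 to 4.35. The direction was thus largely set by the rule, and no p-value is given for it. At 160 UMIs or more, members had a median of 8 sequences and clonotypes of 8 to 11 libraries had 5, at 80 to 159 UMIs the medians were 6 and 5, and at 40 to 79 UMIs they were 5 and 4.

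In most members the leading nucleotide sequence was not the same in all mice. It held a median of 54.4% of a member's UMIs, with a range from 17.4% to 98.9%. The same sequence led in all 12 libraries in 27 members, 95 members had 3 or more leaders, and the maximum was 7. Of TRAV4D-4 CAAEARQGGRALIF TRAJ15, whose first 4 sequences are printed above, 21 of the 23 sequences were found in 2 or more libraries and 1 in all 12. TRAV12N-3 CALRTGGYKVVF TRAJ12 and TRAV4D-3 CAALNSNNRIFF TRAJ31 had 18 each, and TRAV4D-4 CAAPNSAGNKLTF TRAJ17 and TRAV7-3 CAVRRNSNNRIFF TRAJ31 had 16 each. TRAV3D-3 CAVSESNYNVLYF TRAJ21, the member of rank 8, had 3. In the latter, the leading sequence held 79.7% of the UMIs and led in 12 of 12 libraries, whereas in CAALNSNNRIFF it held 21.9% and led in 4.

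Many members resembled each other, but other clonotypes were not compared in this way, so that the resemblance cannot be called particular to the core. Among the 178 members, 94 pairs differed by a single CDR3 residue at the same length, 59 of them with the same V segment, and 95 members took part in such a pair. They formed 28 linked groups. The largest, with 8 members, joined TRAJ37 clonotypes that end in GNTGKLIF, 7 of them with TRAV4D-3 and 1 with TRAV14D-1, and the next, with 7, joined TRAJ12 clonotypes that end in GGYKVVF from 5 V segments. A single CDR3, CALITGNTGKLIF, occurred in 2 members, with TRAV12-3 and with TRAV13D-1.

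No core clonotype passed the threshold between genotypes in the main test. Of the members, 177 entered the edgeR quasi-likelihood test together with other clonotypes, 668 in all, and the member not tested was TRAV12N-3 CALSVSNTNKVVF TRAJ34. At an adjusted p under 0.05, edgeR called 0 members between Il2° and wt, 0 between Il15° and wt and 0 between Il15° and Il2°, where the share over all 668 tested was 0.0% in each. DESeq2 called 3, 1 and 4 members in the same order, of 3, 9 and 13 clonotypes called among the 668. The limma alternative called 0, 0 and 0 members, of 0, 2 and 0 clonotypes called. At an unadjusted p under 0.05, edgeR gave 14 members between Il2° and wt (7.91%, against 6.74% of all tested), 6 between Il15° and wt (3.39%, against 5.84%) and 22 between Il15° and Il2° (12.4%, against 13.5%). The fold change was positive in 7 of the 14, 5 of the 6 and 13 of the 22. These shares lay near those of all clonotypes tested. The median log2 fold change of the members was 0.11 between Il2° and wt, 0.01 between Il15° and wt and 0.04 between Il15° and Il2°, and 0.02, -0.12 and -0.06 over all tested. Between Il2° and wt 143 of the 177 members had a log2 fold change within 1 of 0, between Il15° and wt 165, and between Il15° and Il2° 135. Over all 668 tested, members included, 445, 463 and 391 did in the same order. The rule favours abundant clonotypes, and these counts were not compared at like abundance. The comparisons share libraries, the first 2 those of wt.

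Between Il2° and wt, the 14 members with an unadjusted p under 0.05 were split evenly, 7 with higher and 7 with lower shares in Il2° Treg, and 6 of the 14 began with CAAE. Of the 6 with the lowest p, 5 were TRAV4D-3 or TRAV4D-4 clonotypes with lower shares in Il2° Treg. TRAV4D-3 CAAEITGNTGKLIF TRAJ37, rank 4, held 1.03%, 0.924%, 1.76% and 0.969% in wt, 0.211%, 0.193%, 0.397% and 0.564% in Il2°, and 0.877%, 0.465%, 0.605% and 0.968% in Il15° Treg. All Il2° values were below all wt values. Its log2 fold change was -1.71 ± 0.383 (SE), with an adjusted p of 0.0950 in edgeR's quasi-likelihood test. DESeq2 gave an adjusted p of 0.00454, and with V copies merged edgeR gave 0.0141. TRAV4D-4 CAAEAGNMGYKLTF TRAJ9 held 0.693%, 0.284%, 0.438% and 0.583% in wt and 0.113%, 0.134%, 0.208% and 0.262% in Il2° Treg, again without overlap (log2 fold change -1.43 ± 0.421, adjusted p = 0.395 in edgeR). TRAV4D-3 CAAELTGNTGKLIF TRAJ37 held 0.346%, 0.318%, 0.507% and 0.225% in wt and 0.0678%, 0.123%, 0.150% and 0.131% in Il2° Treg (log2 fold change -1.47 ± 0.438, adjusted p = 0.395 in edgeR). In all 3, every Il2° share lay below every wt share. None passed the threshold in edgeR's main fit, whereas DESeq2 called all 3, with adjusted p of 0.0486 for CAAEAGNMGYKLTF and 0.0371 for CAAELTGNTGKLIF.

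TRAV4D-3 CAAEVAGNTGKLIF TRAJ37 and TRAV4D-3 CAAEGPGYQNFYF TRAJ49 had low counts in Il2° Treg, with 1 UMI in the lowest library. Their log2 fold changes were -2.21 ± 0.741 and -2.77 ± 0.971, each with an adjusted p of 0.407 in edgeR. TRAV7-2 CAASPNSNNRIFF TRAJ31, rank 5, had a fold change of the other sign, with 0.304%, 0.523%, 0.632% and 0.733% in wt and 1.08%, 0.718%, 0.806% and 1.14% in Il2° Treg. The lowest Il2° value lay below the highest wt value, and the log2 fold change was 0.86 ± 0.318 (adjusted p = 0.413 in edgeR). Over all members tested, 17 had shares in Il2° Treg below every wt share (9.6%, against 5.84% of all tested) and 5 had shares above every wt share (2.82%, against 1.8%). Of the 17, 11 were of the TRAV4 family and 4 carried TRAJ37, where 52 and 15 of the 178 members did, and no test was made of these counts.

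**Figure D4:**
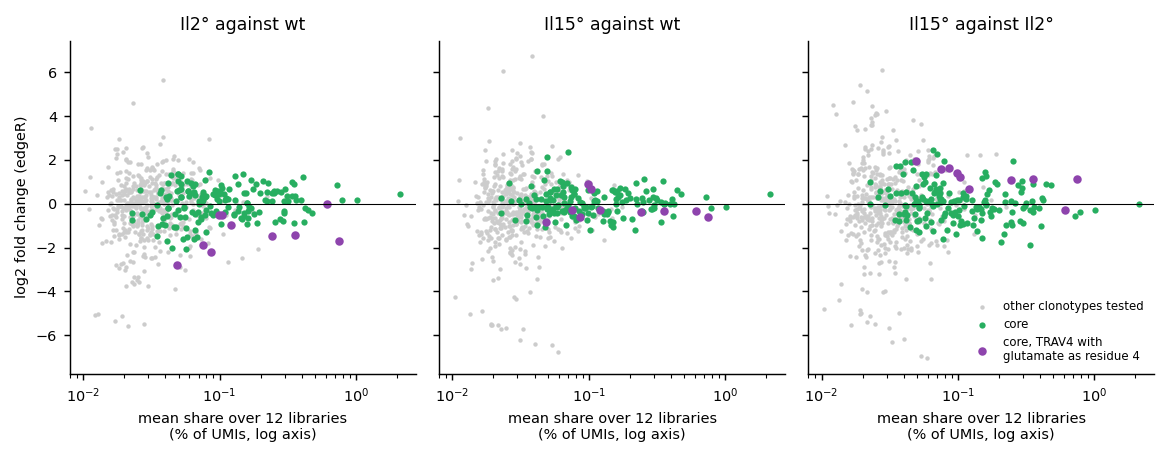
Log2 fold change from edgeR against mean share over 12 libraries (percent of UMIs, log axis) for the 668 clonotypes tested, in 3 comparisons. Core clonotypes are green, the 10 TRAV4 members with glutamate as residue 4 are purple, and other clonotypes are grey. All 10 purple points lie below 0 between Il2° and wt, with a median of -1.45, and 9 of them lie above 0 between Il15° and Il2°.

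The members whose CDR3 begins with CAAE were gathered after these values were seen, so that their values are a description with no test. They numbered 10, with 5 from TRAV4D-3, 4 from TRAV4D-4 and 1 from TRAV4N-3, and 4 of them carried TRAJ37. In 92.2% of their UMIs the V part covered the codon of the glutamate. Together they held 3.31%, 2.91%, 4.04% and 3.20% of the UMIs in wt, 1.38%, 1.17%, 1.78% and 1.88% in Il2°, and 2.86%, 2.09%, 2.09% and 3.26% in Il15° Treg. The Il2° values lay below those of both other genotypes, and wt and Il15° overlapped. The median log2 fold change between Il2° and wt was -1.45 for these 10, with 10 of 10 below 0, and 0.13 for the other 167 members. Between Il15° and Il2° it was 1.16 for the 10 and 0.00 for the others, and between Il15° and wt -0.32 and 0.03.

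The members of this start differed among themselves. TRAV4D-4 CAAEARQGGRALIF TRAJ15, with the most UMIs of those from TRAV4D-4, held means of 0.673% ± 0.110 for wt, 0.647% ± 0.128 for Il2° and 0.526% ± 0.263 for Il15° mice (SD, n = 4), and its log2 fold change between Il2° and wt was -0.01 ± 0.367. TRAV4D-4 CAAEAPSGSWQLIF TRAJ22 held 0.112% ± 0.0168 for wt, 0.0273% ± 0.0147 for Il2° and 0.0856% ± 0.0604 for Il15° mice. Outside the core, clonotypes of all kinds that begin with CAAE held 7.86%, 7.99%, 9.03% and 7.88% of the UMIs in wt, 5.20%, 5.02%, 5.31% and 4.84% in Il2°, and 7.60%, 7.12%, 6.92% and 7.45% in Il15° Treg, with no overlap between the 3 genotypes. Of these, 52 were tested, with a median log2 fold change of -1.09 between Il2° and wt and 37 below 0, against 0.05 for the other 439 clonotypes outside the core. These libraries are the same as those in which the pattern was seen.

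**Figure D5:**
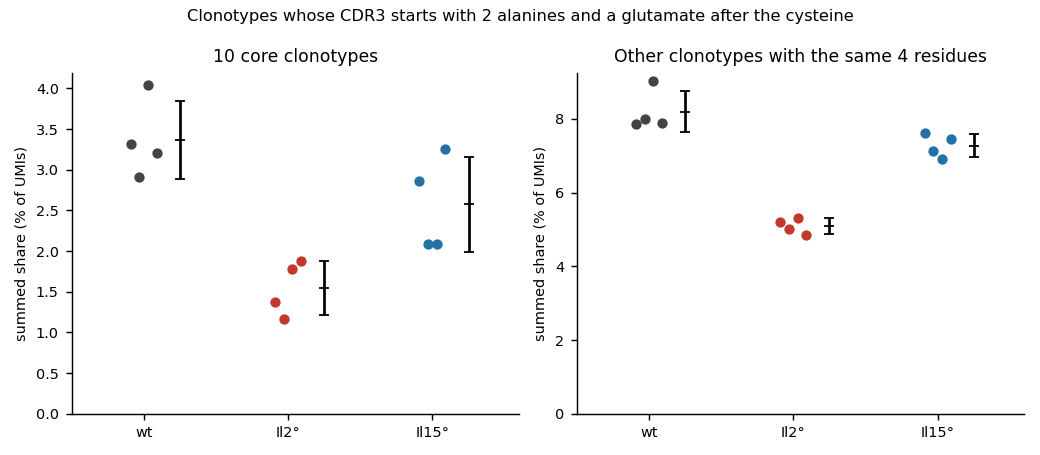
Summed share of the UMIs (percent) of the 10 core clonotypes whose CDR3 begins with cysteine, 2 alanines and glutamate (left) and of the other clonotypes with this start (right), with 1 point per mouse and the mean with SD of 4 mice in black. Core shares lie between 1.17% and 1.88% in Il2° and between 2.91% and 4.04% in wt Treg.

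Between Il15° and wt, 5 of the 6 members with the lowest p had higher shares in Il15° Treg. TRAV12N-3 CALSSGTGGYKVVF TRAJ12 held 0.0423%, 0.0293%, 0.0313% and 0.0115% in wt and 0.111%, 0.0727%, 0.307% and 0.124% in Il15° Treg, without overlap (log2 fold change 2.36 ± 0.801, adjusted p = 0.240 in edgeR). Without Il15° replicate 3, which had the highest share, it was 1.76. TRAV14-1 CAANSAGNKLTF TRAJ17 held 0.154%, 0.217%, 0.207% and 0.283% in wt and 0.316%, 0.850%, 0.326% and 0.334% in Il15° Treg (log2 fold change 1.03 ± 0.396, adjusted p = 0.442 in edgeR). Its shares in Il2° Treg also lay above those of wt, between 0.293% and 0.588%. Without Il15° replicate 2, its log2 fold change between Il15° and wt was 0.57. TRAV4D-3 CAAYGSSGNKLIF TRAJ32 held 0.223%, 0.222%, 0.300% and 0.312% in wt and 0.194%, 0.0581%, 0.0465% and 0.124% in Il15° Treg (log2 fold change -1.21 ± 0.480, adjusted p = 0.481 in edgeR).

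The remaining 3 members of this comparison were TRAV6-5 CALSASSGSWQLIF TRAJ22 with a log2 fold change of 1.12 ± 0.444, TRAV14D-1 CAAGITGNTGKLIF TRAJ37 with 2.13 ± 0.931 and TRAV7-2 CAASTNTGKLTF TRAJ27 with 0.96 ± 0.441, with adjusted p of 0.481, 0.603 and 0.696 in edgeR. Of all members tested, 5 had shares in Il15° Treg below every wt share (2.82%, against 4.79% of all tested) and 2 above every wt share (1.13%, against 1.5%). The 2 were the TRAV12N-3 and TRAV14-1 members described above. The TRAV14D-1 member had 4, 5, 4 and 2 UMIs in wt and 21, 13, 1 and 19 in Il15° Treg. Its share in Il15° replicate 3, 0.00930%, lay below every wt share.

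Between Il15° and Il2°, the lowest p belonged to 2 members with fold changes of opposite sign. TRAV6-5 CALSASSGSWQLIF TRAJ22 held 0.154%, 0.209%, 0.225% and 0.248% in wt, 0.143%, 0.0590%, 0.0715% and 0.184% in Il2°, and 0.511%, 0.233%, 0.577% and 0.430% in Il15° Treg (log2 fold change 1.97 ± 0.468, adjusted p = 0.0666 in edgeR). Every Il15° share was above every Il2° share. TRAV16N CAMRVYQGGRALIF TRAJ15 held 0.346%, 0.456%, 0.119% and 0.196% in wt, 0.354%, 0.627%, 0.780% and 0.511% in Il2°, and 0.211%, 0.174%, 0.130% and 0.140% in Il15° Treg (log2 fold change -1.87 ± 0.474, adjusted p = 0.0736 in edgeR). Here the wt shares overlapped with both mutants, and the mutants did not overlap. DESeq2 gave an adjusted p of 0.00219 for the first and of 0.00317 for the second, and edgeR with V copies merged gave 0.0160 for both.

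TRAV1 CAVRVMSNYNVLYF TRAJ21 had means of 0.348% ± 0.109 for Il2° and 0.106% ± 0.0708 for Il15° mice (SD, n = 4), with a log2 fold change of -1.77 ± 0.564 (adjusted p = 0.215 in edgeR). TRAV4D-3 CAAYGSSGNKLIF TRAJ32 and the TRAV19 TRAJ42 member of 13 residues had log2 fold changes of -1.36 ± 0.484 and -1.54 ± 0.556, and TRAV4D-3 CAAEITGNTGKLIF TRAJ37 one of 1.11 ± 0.379 (adjusted p = 0.233, 0.233 and 0.220 in edgeR). In all, 7 members had shares in Il15° Treg below every Il2° share (3.95%, against 4.34% of all tested) and 10 above every Il2° share (5.65%, against 3.44%). Of the 10, 4 began with CAAE, where 10 of the 177 members tested did. This start was singled out after its values were seen.

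Segment usage within the core did not pass the adjusted threshold between genotypes, over 7 TRAV segments, 7 TRAJ segments and 3 comparisons. TRAV and TRAJ were adjusted separately, each over its segments and the comparisons. With 4 mice per genotype, a few comparisons at the smallest possible p cannot pass this adjustment. The outcome therefore does not show equal usage. The values with the smallest p that 4 against 4 mice allow, 0.0286 in the exact Mann-Whitney test, were these. TRAV4D-3 held 19.8% ± 2.14 of the core UMIs in wt and 12.6% ± 1.93 in Il2° Treg, TRAV7-2 7.14% ± 0.786 and 10.4% ± 2.38, and TRAV7-3 8.78% ± 1.33 and 10.5% ± 0.903 (SD, n = 4, adjusted p = 0.200 each in the exact test). TRAJ37 held 11.04% ± 2.63 for wt, 5.83% ± 0.444 for Il2° and 8.68% ± 1.45 for Il15° mice (adjusted p = 0.300 for Il2° against wt and for Il15° against Il2° in the exact test). Without the members beginning with CAAE, TRAV4D-3 held 13.2% ± 0.544 in wt and 10.6% ± 1.33 in Il2° Treg with no overlap, and TRAJ37 4.74% ± 1.01 and 3.85% ± 0.532 with overlap.

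Residues of the core CDR3 middle by genotype were looked at after the comparison with the other clonotypes and were not tested. Acidic residues made up 4.73% ± 0.310 for wt, 3.78% ± 0.226 for Il2° and 4.38% ± 0.163 for Il15° mice (SD, n = 4). The Il2° values, between 3.48% and 4.02%, lay below all others. The middle begins at residue 4, so that the glutamate of the members beginning with CAAE counts as acidic here. Those members held 10.6% to 14.3% of the core UMIs in wt, 4.50% to 6.67% in Il2° and 7.43% to 11.3% in Il15° mice. The acidic values are thus not separate from the CAAE pattern above, and they were not computed without these members. Basic residues made up 7.43% ± 0.548, 8.55% ± 0.115 and 7.22% ± 0.420, and the Il2° values, between 8.43% and 8.66%, lay above all others. Hydrophobic residues made up 11.95% ± 0.657, 12.02% ± 0.697 and 11.8% ± 0.676, with overlap. Mean CDR3 lengths of the core were 13.15 ± 0.0293 for wt, 13.11 ± 0.0331 for Il2° and 13.11 ± 0.0649 for Il15° mice, with exact Mann-Whitney p of 0.114 for Il2° against wt, 0.486 for Il15° against wt and 0.886 for Il15° against Il2° (adjusted p = 0.343, 0.729 and 0.886).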

How the data were processed

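TCRα libraries were made by the authors from RNA of sorted Treg of 12 mice and the reads were handled with pRESTO, MiXCR and VDJtools. UMIs with at least 2 reads were kept. The deposited counts are UMIs per clonotype, not normalized and not pooled between mice, and the deposited fraction is this count divided by the library total. The deposited positions of V end and J start gave the bases between the segments. The build named in the labels is mm10, and the version of the segment library is not given in the sources used here.

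All values were computed from the counts. Rows of the same V, CDR3 residues and J were summed. Shares are percent of the UMIs of a library. Bases between V and J were used where both positions lie in the CDR3, which left out 0.146% of UMIs. Libraries were compared between genotypes with exact 2-sided Mann-Whitney tests, and core with other clonotypes by exact 2-sided sign-flip permutation over 12 libraries. For the 668 clonotypes that reached 5 UMIs in 4 or more libraries, counts entered edgeR's quasi-likelihood test, with TMM normalization, in 1 fit of 12 libraries, with Benjamini-Hochberg adjustment over all tested and a threshold of 0.05. TMM factors ran from 0.865 to 1.23, and the coefficient of variation from the common dispersion was 0.857. Each SE of an edgeR log2 fold change was derived as its size divided by the square root of the test's F statistic. DESeq2 and limma, on log2(percent + 0.01), were alternatives. The scripts were tested on simulated data.

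Python 3.11.15, numpy 2.4.6, pandas 2.3.3, scipy 1.17.1, R 4.3.3, edgeR 4.0.16, limma 3.58.1 and DESeq2 1.42.0 were used. Segment positions are from GENCODE M21 (GRCm38), in which 72 of 73 segments of members were found by name.

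Core clonotypes named are the 10 of highest mean share, the 6 with the lowest edgeR p in each comparison, the 5 with the most nucleotide sequences and the 5 of lowest mean share, which gave 30 members, and segments at 5% or more of core or others. Further names were chosen after their values were seen. The members, lists and tests were chosen with earlier results of these data known. Labels give a number to each mouse within its genotype, from different animals. With 3 UMIs as the smallest count taken as detectable, the lowest detectable share ran from 0.0115% to 0.0393% of a library.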

Additional observations from a re-analysis of the deposited data

Results flagged for a closer look

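Within groups of 4 mice, a value was marked when its gap to the nearest other mouse was a large part of the group's range (Dixon's test, 95% critical value). Chance marks about 1 in 20 groups, and 11 of 141 groups were marked. They were spread over 7 mice, with at most 2 in each.

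For segment shares of the core UMIs, TRAV4D-4 stood at 9.04% in Il15° replicate 3 (10.5% to 10.7% in the other Il15° mice), TRAV7-2 at 5.97% in wt replicate 1 (7.37% to 7.62% in the other wt mice) and TRAV7-3 at 11.9% in Il2° replicate 2 (10.0% to 10.2% in the other Il2° mice). TRAJ22 stood at 3.61% in Il15° replicate 2 (6.77% to 7.18% in the others) and TRAJ37 at 14.95% in wt replicate 3 (9.38% to 10.1% in the others).

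For single members, TRAV4D-3 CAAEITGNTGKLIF TRAJ37 held 1.76% in wt replicate 3 (0.924% to 1.03% in the other wt mice), and TRAV4D-3 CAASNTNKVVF TRAJ34 held 0.589% in wt replicate 1 (0.375% to 0.407%). TRAV12N-3 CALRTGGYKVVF TRAJ12 held 0.521% in Il15° replicate 3 (0.654% to 0.672% in the other Il15° mice). TRAV14-1 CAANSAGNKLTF TRAJ17 was marked in both mutants, with 0.588% in Il2° replicate 1 (0.293% to 0.332%) and 0.850% in Il15° replicate 2 (0.316% to 0.334%). TRAV14D-1 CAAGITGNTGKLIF TRAJ37 held 0.118%, or 9 UMIs, in Il2° replicate 4 (0.0214% to 0.0301%), the library with the fewest UMIs.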

How the results depend on the processing

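The core had 108 members when defined by CDR3 nucleotides, 114 with presence at 2 UMIs, 220 with V copies merged and a mean of 126.1 with all libraries downsampled to 7625 UMIs, and between 179 and 201 when a library was left out. The core share difference between Il2° and wt turned to -0.680 percentage points with V copies merged and to -0.456 without the first member, and ran from -0.445 to 0.693 with a library left out, and that between Il15° and Il2° was -0.202 with presence at 2 UMIs. The difference in core CDR3 length between Il15° and Il2° was -0.0150 residues with V copies merged and -0.0126 with presence at 2 UMIs, and ran from -0.0157 to 0.0353 with a library left out. Core against other CDR3 length was -0.110 with V copies merged and -0.142 with each clonotype counted once. It was 0.0666 (p past the threshold) for clonotypes without a frame or stop mark and 0.115 (past it) against others with at least 5 UMIs. With a library left out it ran from -0.00467 to 0.0171. The cause of these changes was not tested.

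Members called between Il2° and wt numbered 3 with DESeq2, of 3 clonotypes called in all. They numbered 1 with library totals, without a UMI minimum or with the replicate number as a block, of 1 called in each. With V copies merged they numbered 1 of 2 called. With a library left out they numbered 0 to 1 (1 of 1 called without Il15° replicate 2). Between Il15° and wt DESeq2 called 1 member, of 9 clonotypes called. Between Il15° and Il2° it called 4 members, of 13 clonotypes called. Library totals and a minimum of 60 UMIs in all each called 2 members of 4 called, and V copies merged 2 of 3. Fits of 8 libraries called 1 of 1. Leaving out a library gave 0 to 2 members (1 of 2 called without wt replicate 2, 2 of 4 without wt replicate 3, 1 of 3 without Il2° replicate 1). Deviations of same-numbered mice from the means of their genotypes correlated between -0.195 and 0.140. Whether same-numbered mice shared a litter or a batch was not tested. The 18 fold changes of the named members kept their sign in 349 of 349 refits, and 22 were past the threshold. These 18 were picked for low p in the same libraries that the refits used, so that their kept sign is no independent support. Depth limits the members with few UMIs: 64 stood at 1 UMI in some library.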
